A study of Mus musculus with 6 samples.

Results

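The growth arrest genes are a set of 10 mouse genes that slow or stop cell division or respond to DNA damage: Gadd45a, Gadd45b and Gadd45g, the CDK inhibitor genes Cdkn1a, Cdkn1b and Cdkn1c, Txnip, and the genes Ccng1, Mdm2 and Btg2. A gene was taken where the platform annotation gave a row of the value table exactly 1 gene symbol, and of several rows the brightest on average was used. This found 9 of the 10 genes among 19938 genes in all. The row that covers Cdkn1a carries 2 gene symbols, so Cdkn1a is not analysed here. Expression was measured on 6 Affymetrix arrays, 3 of cultures treated with 1,25-dihydroxyvitamin D3, the hormonal form of vitamin D (1,25D), at 10 nM, and 3 of vehicle controls. All came from brains of OF1 mouse embryos at embryonic day 17, whose neural cells had differentiated in fetal calf serum into a mixture of neurons and glia before the change to serum-free medium without growth factors. How long the hormone was applied is not stated in the labels. The labels call the 3 arrays of a group biological replicates but do not say whether an equal number marks a shared litter or day, so the p-values below reflect only how far these arrays scatter.

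Cells leave the division cycle when cyclin-dependent kinases (CDKs) are held inactive. The proteins p21 (Cdkn1a), p27 (Cdkn1b) and p57 (Cdkn1c) bind CDK complexes directly, and p27 and p57 are known for holding neural progenitors and differentiating neurons out of the cycle. The small Gadd45 proteins bind CDK1, PCNA and the kinase MEKK4 under stress. Cdkn1a, Gadd45a, Ccng1, Mdm2 and Btg2 are textbook targets of the transcription factor p53, and Mdm2 in turn marks p53 for degradation. Txnip, which binds and inhibits thioredoxin, was first isolated as a gene raised by vitamin D3 in a human leukaemia line, and Cdkn1a and Gadd45a are known vitamin D receptor targets in human cancer cells.

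The upstream sequences of the Gadd45 genes and of Txnip are shown because the 3 Gadd45 relatives differed in sign in the comparison below and Txnip had the lowest mean difference. Each is the 250 bases before the annotated start, from RefSeq on build GRCm38.p6, 5′ to 3′ on the gene's own strand. Capitals mark matches, on either strand, to the motifs of common promoter boxes, of POU, FOXO and E-box factors and of p53 that are spelled out or named after the sequences.
Gadd45a, chr6:67037408-67037657, minus strand: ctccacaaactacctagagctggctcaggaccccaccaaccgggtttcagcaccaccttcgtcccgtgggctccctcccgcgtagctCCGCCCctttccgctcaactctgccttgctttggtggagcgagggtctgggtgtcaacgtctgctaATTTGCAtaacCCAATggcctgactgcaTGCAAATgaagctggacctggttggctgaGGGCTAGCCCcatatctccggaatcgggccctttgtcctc
Gadd45b, chr10:80929841-80930090, plus strand: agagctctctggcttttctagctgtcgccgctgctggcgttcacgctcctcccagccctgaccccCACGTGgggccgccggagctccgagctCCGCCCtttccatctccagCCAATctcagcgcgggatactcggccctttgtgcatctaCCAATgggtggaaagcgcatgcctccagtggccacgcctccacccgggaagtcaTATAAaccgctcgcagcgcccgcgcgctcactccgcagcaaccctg
Gadd45g, chr13:51846425-51846674, plus strand: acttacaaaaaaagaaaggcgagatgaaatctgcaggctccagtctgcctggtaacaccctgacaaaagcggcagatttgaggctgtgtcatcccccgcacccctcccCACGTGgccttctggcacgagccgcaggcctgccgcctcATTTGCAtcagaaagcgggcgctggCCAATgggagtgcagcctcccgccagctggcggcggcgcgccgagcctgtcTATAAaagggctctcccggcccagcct
Txnip, chr3:96557707-96557956, plus strand: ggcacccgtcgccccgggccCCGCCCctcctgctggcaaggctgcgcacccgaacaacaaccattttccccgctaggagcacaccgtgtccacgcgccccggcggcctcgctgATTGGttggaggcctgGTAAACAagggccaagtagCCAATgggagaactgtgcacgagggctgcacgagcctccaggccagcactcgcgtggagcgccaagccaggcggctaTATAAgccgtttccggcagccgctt
No capital stretch in these 4 windows belonged to more than 1 motif. All 4 held a CCAAT box, searched by those letters, as did 33.8% of the 32851 RefSeq windows of this length. The octamer core of POU factors, searched as ATTTGCA, stood 2 times in Gadd45a and a single time in Gadd45g, against 3.56% of windows with any. The E-box, searched as CACGTG, stood in Gadd45b and Gadd45g, against 6.02% of windows. A TATA box, searched as TATAA, stood in Gadd45b, Gadd45g and Txnip (22.8% of windows) and not in Gadd45a, whose window held a p53 half-site (7.13%). The Txnip window held the FOXO site, searched as GTAAACA (3.17% of windows). The GC box, searched as GGGCGG, stood in Gadd45a, Gadd45b and Txnip (32.7%). A vitamin D receptor direct repeat, made of 2 half-sites with 3 bases between them, each of which could read AGGTCA, in a first variant GGGTCA, in another variant GGTTCA, or in the last variant AGTTCA, stood in 0.0396% of windows and in none of the 8 member windows. Windows were matched for 8 of the 9 genes, all but Cdkn1c.

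The median gene had an intensity of 240.8 to 252.9 on the 1,25D arrays and of 240.4 to 251.0 on the control arrays. Over all genes 5 were higher and 0 lower in 1,25D cultures (limma, adjusted p under 0.05; 295 genes at an unadjusted p under 0.05), or 18 and 0 with the replicate number as a block (1152 at an unadjusted p under 0.05). Of the genes that check the hormone's action, S100g, a calcium-binding protein induced by the vitamin D receptor, rose by 1.56 ± 0.13 on the log2 scale (SE, adjusted p = 0.022), and Vdr, the receptor, had a difference of 1.76 ± 0.30 (adjusted p = 0.38). Cyp24a1 is not analysed here. Neuronal Map2 averaged a log2 intensity of 10.65 ± 0.47 in 1,25D cultures and 10.94 ± 0.30 in controls, and astrocytic Gfap 11.52 ± 0.48 in 1,25D cultures and 11.61 ± 0.52 in controls (SD, n = 3 each). In 11 marker lists of cell types, with 71 of 76 genes measured, 0 genes were called in either fit and list medians lay between -0.12 and 0.07. In bulk cultures fewer cells of a type and less RNA per cell cannot be told apart. In replicate 1, 1094 genes (5.49%) had the same value to the last digit on the 1,25D and the control array, against at most 19 genes for any other pair of arrays.

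Among the 9 growth arrest genes, 4 had higher and 5 lower means in 1,25D cultures, and none passed the test (limma, adjusted p = 1.00 for each). The share of all genes called was 0.0251%, so a count of 0 among 9 is near the background. With the replicate number as a block, 0 of 9 passed as well, against 0.0903% of all genes. At an unadjusted p under 0.05 there was 1 of the 9 genes, Gadd45g, against 1.48% of all genes, and with the block there were 3 (Gadd45a, Gadd45g and Txnip), against 5.78%. The groups did not overlap for 3 of the 9, against 4.15% of all genes. Gadd45a and Cdkn1c were the 2 with every 1,25D array higher (2.63% of all genes), and Gadd45g the 1 with every 1,25D array lower (1.52%). Groups that do not overlap always give differences of 1 sign in all 3 replicates, so for these 3 genes that sign pattern adds nothing. They were the only ones of the 9 with 1 sign throughout, a trait that 25.8% of all genes had. The set was put together with earlier results of these data known, so these shares are no independent evidence. The median difference over the 9 genes was -0.07, against 0.01 over all genes, and single differences ran from -0.44 to 1.04.

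**Figure D1:**
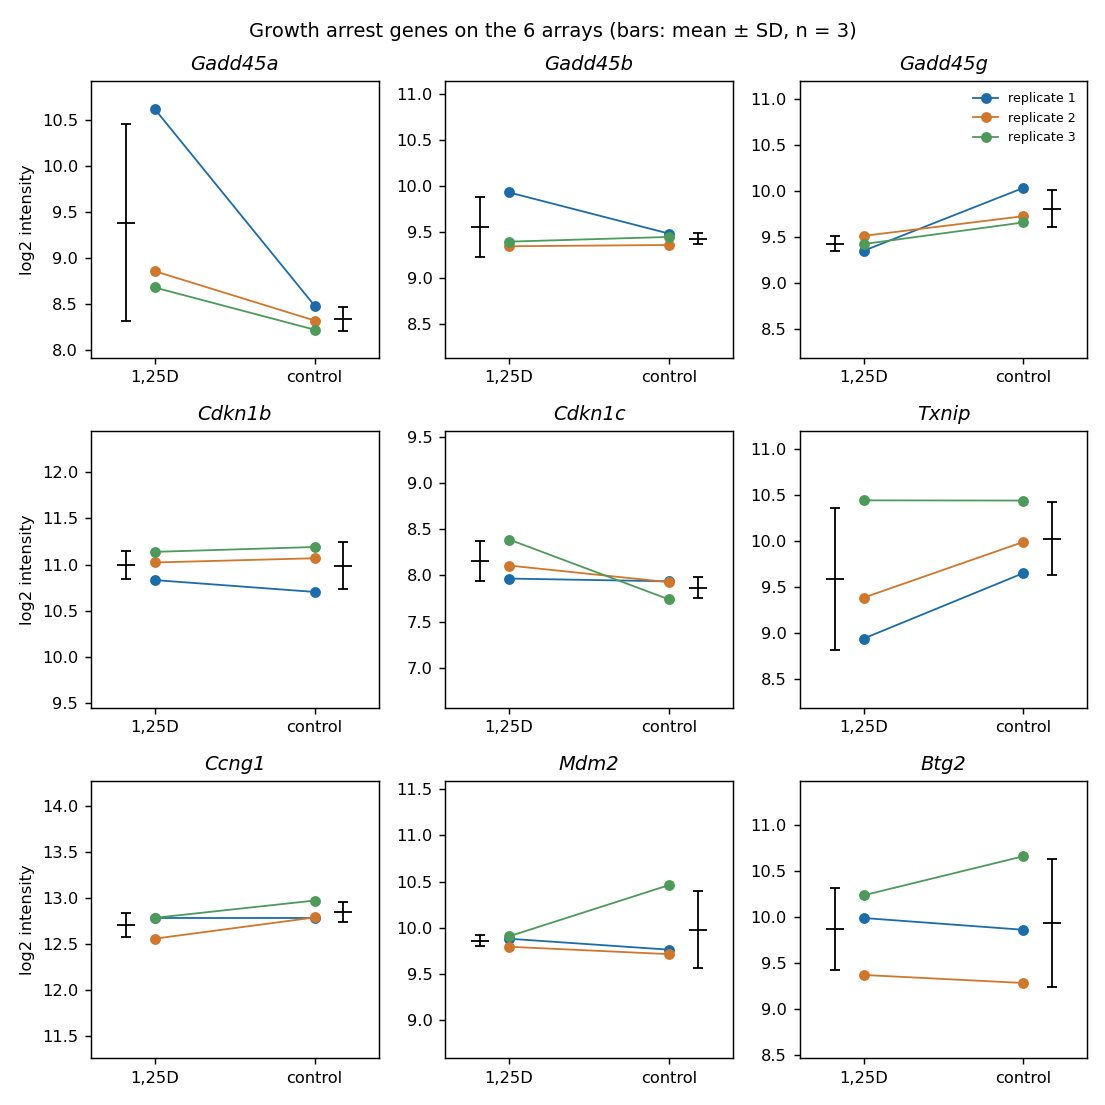
Log2 intensity (vertical axes, each spanning the same 3 log2 units) of the 9 growth arrest genes on the 1,25D arrays (left) and control arrays (right). Points are arrays, lines join equal replicate numbers, and bars give the mean ± SD (n = 3). Gadd45a stands at 10.62 on the 1,25D array of replicate 1, and Gadd45g is below every control on each 1,25D array.

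Gadd45a, a stress-induced brake on the G2 to M transition, had a log2 intensity of 10.62, 8.86 and 8.68 on the 1,25D arrays of replicates 1, 2 and 3, against 8.48, 8.32 and 8.22 on the control arrays. All 1,25D arrays lay above all controls, and the array of replicate 1 stood far above the other two. The mean was 9.39 ± 1.07 in 1,25D cultures and 8.34 ± 0.13 in controls (SD, n = 3 each), a 2.06-fold higher mean. The log2 difference was 1.04 ± 0.46 (SE), with a 95% interval of -0.02 to 2.10 and a limma adjusted p of 1.00 (0.053 unadjusted). With the block the interval was 0.29 to 1.79 and the adjusted p 0.68. The difference thus missed the threshold in both fits. Within equal replicate numbers the difference was 2.13, 0.54 and 0.46, and in replicate 1 it was larger in size for 0.0401% of genes, in replicates 2 and 3 for 1.31% and 4.46%. Without the 1,25D array of replicate 1 the difference was 0.43, and without both arrays of replicate 1, in the blocked fit, 0.50 (adjusted p = 0.30).

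Gadd45g, which is expressed in newly forming neurons and inhibits CDK1, ran the other way. It had 9.35, 9.51 and 9.42 on the 1,25D arrays, against 10.03, 9.72 and 9.66 on the control arrays. Every 1,25D array lay below every control, and the control of replicate 1 stood highest. The mean was 9.43 ± 0.08 in 1,25D cultures and 9.80 ± 0.20 in controls (SD, n = 3 each). The log2 difference was -0.38 ± 0.12 (SE), a ratio of 0.770, with a 95% interval of -0.66 to -0.09 and a limma adjusted p of 1.00 (0.016 unadjusted; adjusted p = 0.68 with the block). Its difference was -0.68, -0.21 and -0.23 in replicates 1, 2 and 3, and it stayed between -0.45 and -0.26 when any single array was left out. Without both arrays of replicate 1, in the blocked fit, it was -0.22 (limma adjusted p = 1.00).

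Gadd45b, an immediate early member of the family induced by neuronal activity and NF-kappaB, had 9.93, 9.35 and 9.40 on the 1,25D arrays, against 9.48, 9.36 and 9.45 on the control arrays. The groups overlapped, and the 1,25D array of replicate 1 was again the highest. Its mean differed by 0.13 ± 0.16 on the log2 scale (SE, 95% interval -0.25 to 0.50, adjusted p = 1.00). It was 0.45 in replicate 1 and -0.01 and -0.05 in replicates 2 and 3, and without the 1,25D array of replicate 1 its sign turned, to -0.06. The 3 relatives thus had their largest differences in replicate 1, with Gadd45a and Gadd45b above 0 and Gadd45g below.

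**Figure D2:**
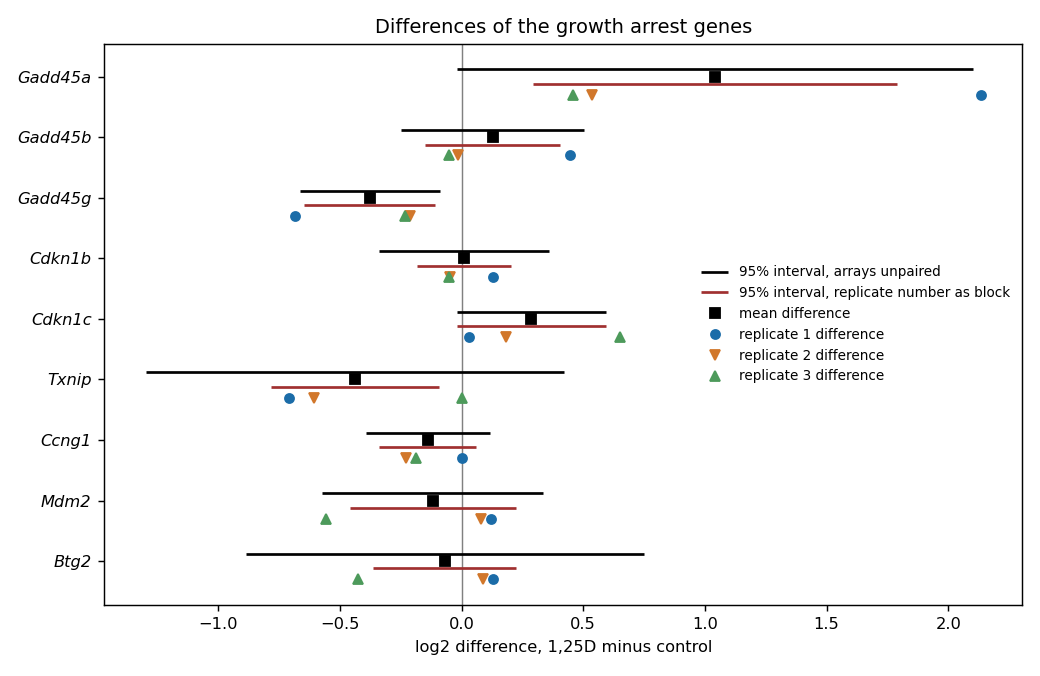
Log2 difference (horizontal axis, 1,25D minus control) of each growth arrest gene. Squares are means, black lines the 95% intervals with arrays unpaired, red lines those with the replicate number as a block, and coloured symbols the differences within replicates 1, 2 and 3. The interval of Gadd45g lies below 0 in both fits (-0.66 to -0.09 unpaired), and the Gadd45a point of replicate 1 lies at 2.13.

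Gadd45a is also a gene of the integrated stress response, so a list of 14 stress genes, 13 of them measured, was set beside it. None of the 13 passed in either fit. Of these, 10 had higher and 3 lower means in 1,25D cultures, with a median difference of 0.20 against 0.01 over all genes. The median was 0.57 in replicate 1 and 0.06 and 0.05 in replicates 2 and 3, and without the 1,25D array of replicate 1 it was 0.03. The 1,25D array of replicate 1 was the highest of its group for 11 of the 13 stress genes, against 39.4% of all genes. The control array of replicate 1 was the highest control for 7 of the 13, against 39.0% of all genes. Nupr1, a small stress-induced chromatin protein, had a difference of 1.35 ± 0.41 (SE, adjusted p = 1.00), at 2.20, 1.13 and 0.72 in replicates 1, 2 and 3. With the block over all arrays its limma adjusted p was 0.33. Without both arrays of replicate 1, the blocked fit called 38 of 19938 genes higher and 2 lower. In that smaller fit Nupr1 was the single gene of the 10 pathway lists that passed (limma adjusted p = 0.023), at a difference of 0.92. Hspa1a, a heat shock chaperone, had a difference of 0.37 ± 0.14 (adjusted p = 1.00). Trib3 and Ddit3, targets of the stress factor ATF4, had differences of 0.74 and 0.57 in replicate 1, 0.05 and 0.19 in replicate 2, and 0.15 and 0.03 in replicate 3. Asns, an asparagine synthetase, and Chac1, which degrades glutathione, are also ATF4 targets and had 0.68 and 0.71 in replicate 1, but -0.30 and 0.13 in replicate 2, and -0.03 and -0.23 in replicate 3. In replicate 1, 9 of the 13 stress genes had differences above 0, against 49.1% of all genes, and 4 had differences below 0. Those 4 were Xbp1 at -0.29, Hspa5 at -0.25, Ppp1r15a at -0.10 and Atf3 at -0.07. The other stress genes named here and Gadd45a were higher on the 1,25D array of replicate 1 than on its control. The part of culture stress in the Gadd45a value was not tested.

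**Figure D3:**
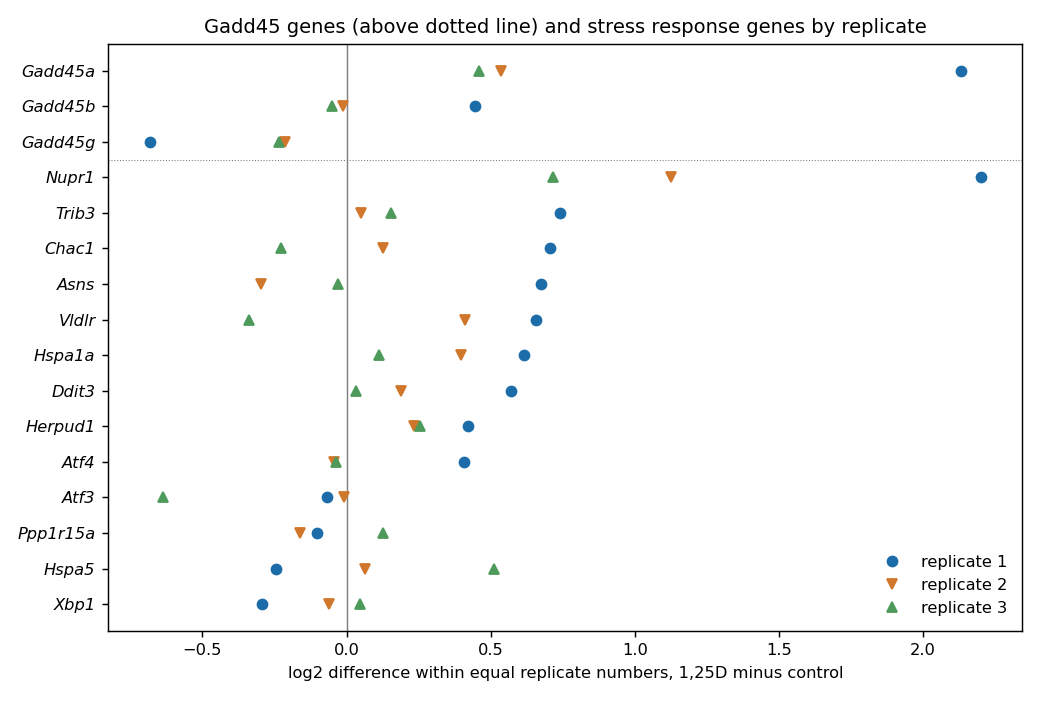
Log2 difference within equal replicate numbers (horizontal axis, 1,25D minus control) of the 3 Gadd45 genes, above the dotted line, and of the 13 measured stress response genes, ordered by replicate 1. Circles, inverted triangles and triangles are replicates 1, 2 and 3. Gadd45a and Nupr1 lie at 2.13 and 2.20 in replicate 1, and the median of the stress list was 0.57 there.

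Neither of the CDK inhibitor genes of the growth arrest set that could be measured passed. Cdkn1c, which encodes p57, had a log2 intensity of 7.97, 8.11 and 8.39 on the 1,25D arrays of replicates 1 to 3, against 7.94, 7.93 and 7.74 on the control arrays. The 1,25D arrays all lay above the controls, least in replicate 1 and most in replicate 3. The mean was 8.15 ± 0.22 in 1,25D cultures and 7.87 ± 0.11 in controls (SD, n = 3 each), a 1.22-fold higher mean. The log2 difference was 0.29 ± 0.13 (SE, 95% interval -0.02 to 0.59, unadjusted p = 0.063, adjusted p = 1.00), and it was 0.03, 0.18 and 0.65 in replicates 1, 2 and 3. Without the 1,25D array of replicate 3 it was 0.17.

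Cdkn1b, which encodes p27, had 10.83, 11.02 and 11.14 on the 1,25D arrays, against 10.70, 11.07 and 11.19 on the control arrays. Replicate 1 was the lowest in both groups, and the groups overlapped fully. Its mean differed by 0.01 ± 0.15 on the log2 scale (SE), with a 95% interval of -0.34 to 0.36, or -0.18 to 0.20 with the block. A second, dimmer Cdkn1b row had a difference of 0.02 ± 0.29 (SE), but its difference was -0.48 in replicate 1 and 0.66 in replicate 3, so the rows did not move together between replicates.

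The wider machinery of G1 and S phase entry gave no call either. Of 23 measured genes of G1 control, 0 passed in either fit, 8 had higher and 15 lower means, and the median was -0.03. E2f5, a repressive E2F factor, had -0.33 ± 0.19 and Rb1, the retinoblastoma protein, -0.22 ± 0.18 (SE). The 4 genes of the INK4 family, whose INK4 products block CDK4 and CDK6, had differences of 0.12 for Cdkn2a, 0.06 for Cdkn2b, 0.12 for Cdkn2c and -0.01 for Cdkn2d. Of 23 measured proliferation genes, 0 passed in either fit, 5 had higher and 18 lower means, and the median was -0.07. The median of that list was -0.10, -0.21 and 0.10 in replicates 1, 2 and 3, so its sign differed between replicates, and without the control array of replicate 2 it turned to 0.02. Cenpe, a mitotic kinesin, had -0.26 ± 0.11 and Kif11, another, -0.25 ± 0.17 (SE). Among 9 measured partners of the Gadd45 proteins, 0 passed, and the kinases Mapk9 (JNK2) and Mapk14 (p38) had -0.11 ± 0.09 and -0.10 ± 0.09.

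Txnip had a log2 intensity of 8.94, 9.38 and 10.44 on the 1,25D arrays of replicates 1 to 3, against 9.65, 9.99 and 10.44 on the control arrays. Replicates 1 and 2 were lower in 1,25D cultures, and replicate 3 was as high in either. The mean was 9.59 ± 0.77 in 1,25D cultures and 10.02 ± 0.39 in controls (SD, n = 3 each). The log2 difference was -0.44 ± 0.37 (SE), a ratio of 0.738, with a 95% interval of -1.30 to 0.42 (adjusted p = 1.00). With the block the interval was -0.78 to -0.09, with a limma adjusted p of 0.75 (0.020 unadjusted). The difference within replicates was -0.71, -0.61 and 0.00. In replicate 2 it was larger in size for 0.802% of genes and in replicate 3 for 99.0%. Without the 1,25D array of replicate 3 the difference was -0.86, and without that of replicate 1 it was -0.11. In the blocked fits that left out a replicate number it ran from -0.66 to -0.30. Over all 16 alternative fits the lowest limma adjusted p of Txnip was 0.070, which still missed the threshold. The values give no higher Txnip mean in these cultures, and the interval reaches to 0.42 on the log2 scale.

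Genes around Txnip were set beside it in a list of 14, all measured. The list held thioredoxin genes, alpha- and beta-arrestins, MondoA/ChREBP genes and a glucose transporter. None passed, 8 had higher and 6 lower means, and the median was 0.02. Arrdc4, the closest in regulation to Txnip since glucose raises both through MondoA, had a difference of -0.22 ± 0.13 (SE), at -0.41, -0.23 and -0.03 in replicates 1, 2 and 3. Like Txnip, it was lower in replicates 1 and 2 and nearly equal between the groups in replicate 3. Arrdc1, another alpha-arrestin, had 0.10 ± 0.10, and Txn1, thioredoxin itself, 0.00 ± 0.10 (SE). Of 16 measured FOXO factors and targets 0 passed, with a median of 0.03, and Sgk1, a serum and glucocorticoid induced kinase, had -0.20 ± 0.11 and Pik3ip1, an inhibitor of PI3 kinase, -0.12 ± 0.11 (SE).

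The p53 targets among the growth arrest genes gave no call and differed by replicate. Mdm2 had a log2 intensity of 9.88, 9.79 and 9.91 on the 1,25D arrays, against 9.76, 9.71 and 10.46 on the control arrays. The control array of replicate 3 stood above all others. Mdm2 differed by -0.12 ± 0.20 on the log2 scale (SE, 95% interval -0.57 to 0.34, adjusted p = 1.00), and it was 0.12, 0.08 and -0.56 in replicates 1, 2 and 3. Without that control array it was 0.12, with the sign turned.

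Btg2, an antiproliferative factor that recruits the CCR4-NOT deadenylase and marks progenitors about to form neurons, had 9.99, 9.37 and 10.24 on the 1,25D arrays, against 9.86, 9.29 and 10.66 on the control arrays. Replicate 2 was lowest and replicate 3 highest in both groups, so the level differed more between replicate numbers than between treatments. Its mean differed by -0.07 ± 0.35 on the log2 scale (SE), or -0.07 ± 0.12 with the block, and it was 0.13, 0.09 and -0.42 in replicates 1, 2 and 3. Without the control array of replicate 3 it was 0.29.

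Ccng1, cyclin G1, which recruits a phosphatase to Mdm2, had 12.78, 12.56 and 12.78 on the 1,25D arrays, against 12.78, 12.79 and 12.97 on the control arrays. The groups overlapped, and no 1,25D value exceeded its control of equal number. Ccng1 differed by -0.14 ± 0.11 on the log2 scale (SE, 95% interval -0.39 to 0.12, adjusted p = 1.00), at -0.23 and -0.19 in replicates 2 and 3. In replicate 1 its values were identical on both arrays, so that difference is exactly 0; Ccng1 is among the 1094 genes of that kind. Without replicate 1 in the blocked fit the difference was -0.21, without the 1,25D array of replicate 2 it was -0.06, and without the control array of replicate 3 it was -0.08.

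A list of 27 further p53 targets, 26 of them measured, also differed by replicate. None passed in either fit, 9 had higher and 17 lower means, and the median was -0.03. The median was 0.13, 0.01 and -0.18 in replicates 1, 2 and 3, and without the control array of replicate 3 it turned to 0.06. In replicate 1, 19 of the 26 were higher in the 1,25D culture, against 49.1% of all genes. In replicate 3, 19 of the 26 were lower in the 1,25D culture, against 52.1% of all genes. Perp, a junction protein of the p53 response, had 0.33, 0.06 and -1.24 in replicates 1, 2 and 3. Phlda3, an inhibitor of Akt, had 0.17, 0.05 and -0.79, and the death receptor Tnfrsf10b had 0.57, -0.09 and -0.84. Among the 1,25D arrays, that of replicate 1 was the highest for 17 of the 26, against 39.4% of all genes. That of replicate 3 was the highest for 6 of the 9 growth arrest genes, against 31.8% of all genes. The control array of replicate 3 was the highest control for 17 of the 26, against 37.4% of all genes. It was also the highest control for 5 of the 9 growth arrest genes. On that array the ependyma marker list was low, with a median of -0.57 around each gene's own mean, against 0.33 and 0.36 on the control arrays of replicates 1 and 2. The part of cell makeup in the p53 target values was not tested. By the rule of smallest p, Ddit4, an inhibitor of mTORC1 that hypoxia and glucocorticoids also raise, had 0.32 ± 0.16 and Fas, a death receptor, -0.27 ± 0.15 (SE, adjusted p = 1.00 for each).

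**Figure D4:**
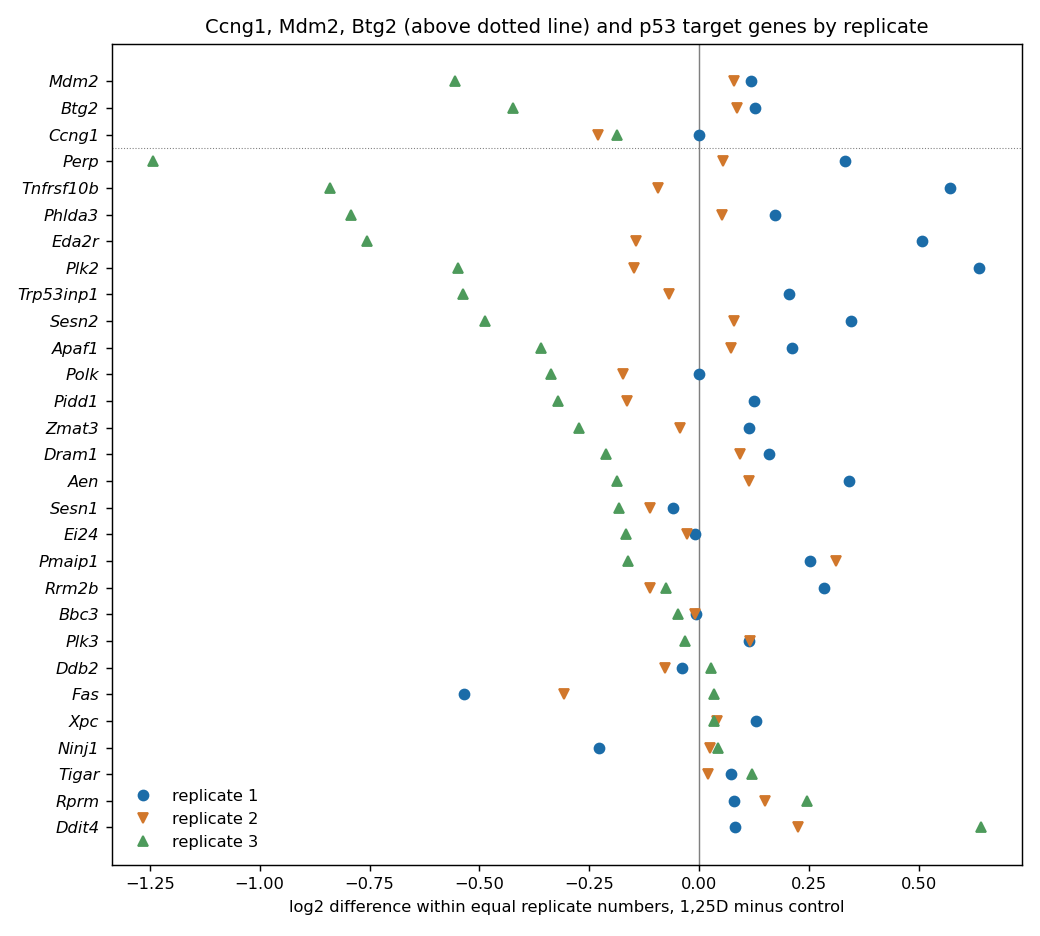
Log2 difference within equal replicate numbers (horizontal axis, 1,25D minus control) of Mdm2, Btg2 and Ccng1, above the dotted line, and of 26 other p53 targets, ordered by replicate 3. Circles, inverted triangles and triangles are replicates 1, 2 and 3. The list median is 0.13 in replicate 1 and -0.18 in replicate 3, where Perp lies at -1.24.

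Regulators of p53 and relatives of Btg2 were also without a call. Of 10 measured p53 regulators, 2 had higher and 8 lower means with a median of -0.06, and Trp53bp1 and Atr, which act in the response to DNA breaks and stalled replication, had -0.12 ± 0.11 and -0.10 ± 0.09 (SE). Of the 8 measured genes in the list of BTG and TOB factors, deadenylase subunits and cyclins, all had means below their controls, between -0.14 and -0.00, with a median of -0.06. Ccni, cyclin I, and Tob2, a BTG relative, had -0.14 ± 0.15 and -0.07 ± 0.10. The control array of replicate 3 was the highest control for 7 of these 8 genes, and without it the median turned to 0.02. Of 20 measured immediate early genes, which are raised as quickly as Btg2 and Gadd45b in active neurons, 0 passed, with a median of -0.01. Klf4 had -0.25 ± 0.19 and Ier2 0.17 ± 0.14 (SE).

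**Figure D5:**
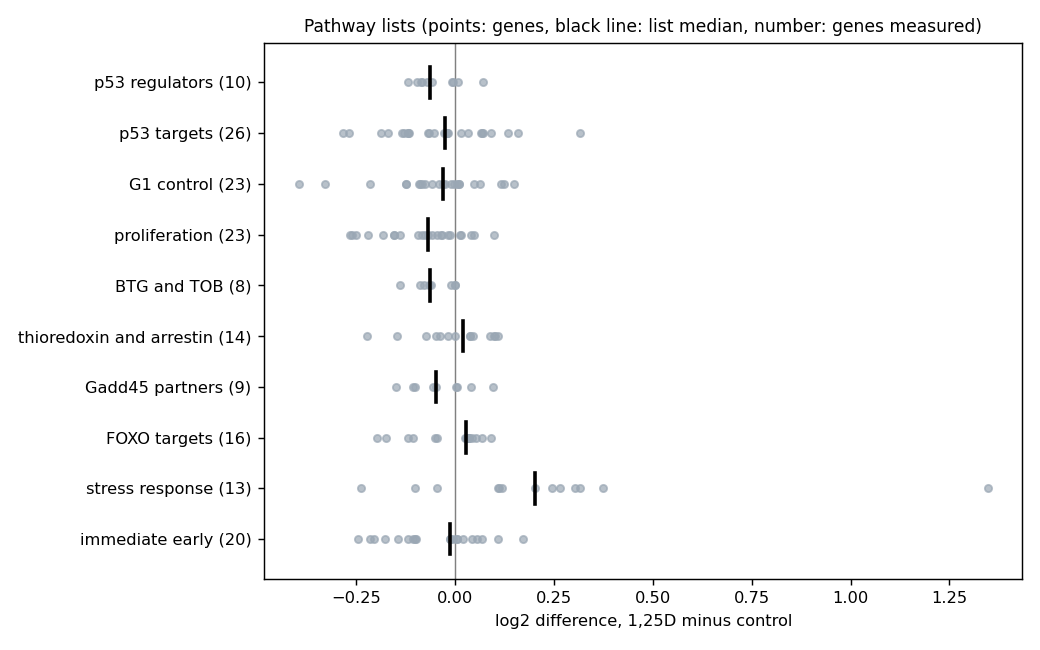
Log2 difference (horizontal axis, 1,25D minus control) of every measured gene in 10 pathway lists, with the number of genes measured in brackets. Points are genes and black lines list medians, which run from -0.07 for proliferation to 0.20 for the stress response; no point passed the test.

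Gadd45g had the smallest unadjusted p of the 9 genes, so the genes with the nearest profile over the 6 arrays were sought for it. Likeness was the root mean square distance between log2 profiles, each centred on its own mean, among 12227 genes with a range at least 50% of that of Gadd45g. The nearest were Sfmbt2, Pitpnm2, Cep135, 2610301B20Rik and 2810459M11Rik, at distances between 0.070 and 0.082 on the log2 scale. Sfmbt2, a Polycomb group protein, had differences of -0.56, -0.12 and -0.07 in replicates 1, 2 and 3. Pitpnm2, a phosphatidylinositol transfer protein, had -0.52, -0.17 and -0.35, and Cep135, a centriole protein, had -0.46, -0.22 and -0.11. None of the 5 passed in either fit (adjusted p = 1.00 for each without the block).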

How the data were processed

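Per the submitters' processing notes, the authors made the deposited intensity values with RMA, run in Affymetrix Expression Console. No version or filter is named in the labels. The deposited values are linear, from 8.05 to 22019, so log2 was taken. RMA gives no detection call. The table held 35556 rows: 21789 with 1 symbol in GEO's platform annotation, 1621 with several and 12146 unnamed here. The rows with 1 symbol gave 19938 genes, 999 of them with several rows.

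1,25D was compared with control by limma (version 3.58.1, R 4.3.3; lmFit and eBayes, no trend) over all 19938 genes, with Benjamini-Hochberg adjustment and a threshold of 0.05. The fit was tested on simulated data. With 3 arrays against 3, an exact permutation test for any gene could reach no p below 0.1. Deviations from the group means correlated at 0.51, 0.65 and 0.46 across genes for equal numbers 1, 2 and 3. For unequal numbers the correlations lay between -0.51 and -0.01. The deviations within a group cancel in sum, so these correlations are not independent of each other. The labels do not state a pairing, and the main comparison left the arrays unpaired. Unless a block is named, SEs, intervals and p-values are unpaired. Equal numbers were treated as pairs only with the block and in the differences within replicates. The median SE over all genes was 0.124 unpaired and 0.086 with the block. If equal numbers do mark pairs, the unpaired p-values tend to be too large.

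The growth arrest genes, the 10 pathway lists and the vitamin D check (172 list genes in all, 164 measured) were chosen with earlier results of these data known. Named were all 9 genes, and in each list the genes called or else the 2 with the smallest p, the vitamin D check, and the 5 profiles nearest to the growth arrest gene with the smallest p. Other list members named were chosen after their values were seen. They were Trib3, Ddit3, Asns, Chac1, Xbp1, Hspa5, Ppp1r15a, Atf3, Perp, Phlda3, Tnfrsf10b, Txn1 and the INK4 genes. Alternatives were the replicate block, normalisation, a filter on dim genes, a variance trend, the rows used and left-out arrays.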

Additional observations from a re-analysis of the deposited data

How the results depend on the processing

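Across 16 alternatives the number of growth arrest genes called stayed at 0 in either direction. Gadd45a, Gadd45g, Cdkn1c, Txnip and Ccng1 kept their sign in all 16, and the values of Gadd45a, Txnip, Cdkn1c and others without the deciding array stand beside those results. Signs of single growth arrest genes turned only where arrays were left out. With single arrays left out, Gadd45b ran from -0.059 to 0.23, Cdkn1b from -0.13 to 0.11, Mdm2 from -0.25 to 0.12 and Btg2 from -0.39 to 0.29. With the replicate block and a replicate number left out, they ran from -0.032 to 0.22, -0.049 to 0.041, -0.24 to 0.10 and -0.17 to 0.11. The number of genes called higher was 18 with the replicate block, 3 after quantile normalisation, 0 over every row of the table (where more features are tested), 0 to 2 with single arrays left out, and with the block 38 without replicate 1, 3 without replicate 2 and 40 without replicate 3, where 2, 0 and 5 were lower. The number of genes called higher in the 10 pathway lists, the vitamin D check left out, was 0 to 1 in those blocked fits. The median of G1 control genes was -0.017 after quantile normalisation, -0.077 to -0.015 with single arrays left out and -0.059 to -0.013 in the blocked omissions. That of Gadd45 partners was -0.091 to -0.0026 and -0.087 to -0.014 in the same omissions, and that of FOXO genes -0.0078 to 0.015 and -0.023 to 0.053. With single arrays left out, the stress response median ran from 0.028 to 0.36 and that of p53 regulators from -0.092 to -0.043, while the medians of p53 targets (-0.12 to 0.062), proliferation (-0.18 to 0.019), BTG and TOB (-0.093 to 0.020), thioredoxin and arrestin (-0.041 to 0.052) and immediate early genes (-0.045 to 0.034) took both signs, as did that of FOXO genes. The replicate block alone changed no call of a growth arrest gene or a gene of these 10 lists. The cause of these changes was not tested. With 3 arrays a group, intervals are wide.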

Other observations

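Beyond the genes above, the profiles nearest to Gadd45a were sought after its values were seen, among 498 genes with a range at least 50% of its own. They were Nupr1, Car14, Amigo2, Pdlim3 and Ciart, at distances between 0.24 and 0.30 on the log2 scale. Car14, a membrane carbonic anhydrase, had log2 differences of 1.96, 1.15 and 0.97 in replicates 1, 2 and 3, a mean of 1.36 ± 0.32 (SE, limma adjusted p = 1.00, or 0.11 with the block). Ciart, a repressor of the circadian clock, had 1.88, 1.09 and 0.08, and Amigo2, a neuronal adhesion protein, a mean of 0.75 ± 0.32 (SE). Pdlim3, a muscle-type PDZ and LIM protein, had 1.33, 0.69 and 0.36.

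Only 7 of 19938 genes (0.0351%) were higher by more than 2 on the log2 scale in any replicate: Crabp1, Gadd45a, Grpr, Nupr1, Plppr5, Slc7a3 and Vdr. Among these 7, Gadd45a had the lowest mean difference (1.04) and the largest SD among its 1,25D arrays (1.07). Lower by more than 2 in any replicate were 3 genes: Akr1c18 at -2.61 in replicate 3, and Elobl and Steap4 at -2.48 and -2.53 in replicate 1.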
